A study of Mus musculus with 66 samples.

Results

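The BXD panel is a set of recombinant inbred mouse strains bred from C57BL6/J and DBA/2J, so that each strain carries its own fixed mix of both parental genomes. Medial prefrontal cortex of 27 BXD strains was profiled after ethanol and after saline, with 1 array per strain and treatment. These 54 arrays, of 66 in all, were chosen by title and paired by strain number. The ethanol group comprised male mice aged 10 to 12 weeks of BXD strains 1 to 42, given 1.8 g/kg ethanol intraperitoneally. The saline group comprised male mice of the same strains and ages given saline. Both groups went through a test for a parallel study of behaviour, 15 minutes of tube restraint followed by 10 minutes of light-dark testing, so the saline mice carry the stress of injection, restraint and testing too. Tissue was taken 4 hours after injection. RNA of 4 to 5 mice was pooled for an array. Arrays of each progenitor, 3 ethanol and 3 saline, were set beside the panel where stated.

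Neurons that fire strongly switch on immediate early genes within minutes. Calcium entry and MAP kinase signalling act through CREB, which binds the cyclic AMP response element (CRE), and through serum response factor, which binds the CArG box. Genes of this activity programme encode transcription factors such as Npas4, Fos and Egr2. Others encode proteins of synapses and of signalling, among them Arc, Bdnf and the phosphatase Dusp1 that switches MAP kinases off. In the prefrontal cortex these genes also respond to novelty and restraint, and glucocorticoids released by stress induce a further group that includes Fkbp5.

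Starts of 5 genes that the results turn on are shown, taken from RefSeq (build GRCm38.p6), each 300 bases from 250 before the annotated start. They are shown because Npas4 passed the test and the other 4 had the highest correlations with its difference across strains among the genes examined for it, with Btg2 added after its values were seen. Those of Fos and Egr2 also passed without the 2 farthest strains. Capitals mark the CRE (TGACGTCA), its core (TGACG, also read inside each CRE and on both strands) and the CArG box of Egr2.
Npas4, chr19:4989922-4990221, minus strand: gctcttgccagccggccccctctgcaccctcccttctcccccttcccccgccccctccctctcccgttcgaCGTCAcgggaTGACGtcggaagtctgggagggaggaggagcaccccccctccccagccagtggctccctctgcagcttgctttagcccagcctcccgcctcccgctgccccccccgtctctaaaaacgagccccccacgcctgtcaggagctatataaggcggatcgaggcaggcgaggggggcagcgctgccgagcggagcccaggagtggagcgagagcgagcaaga
Fos, chr12:85473640-85473939, plus strand: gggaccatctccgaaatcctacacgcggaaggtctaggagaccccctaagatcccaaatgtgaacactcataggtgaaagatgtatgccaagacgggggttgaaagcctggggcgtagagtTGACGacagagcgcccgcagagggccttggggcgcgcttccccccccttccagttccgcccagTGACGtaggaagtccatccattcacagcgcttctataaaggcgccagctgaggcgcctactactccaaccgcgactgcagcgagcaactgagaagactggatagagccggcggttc
Egr2, chr10:67537619-67537918, plus strand: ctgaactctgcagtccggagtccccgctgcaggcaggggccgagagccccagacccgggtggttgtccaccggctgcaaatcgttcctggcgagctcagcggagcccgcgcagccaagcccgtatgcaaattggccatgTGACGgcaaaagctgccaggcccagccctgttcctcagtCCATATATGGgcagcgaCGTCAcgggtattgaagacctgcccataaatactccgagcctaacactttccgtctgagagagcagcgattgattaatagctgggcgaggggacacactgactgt
Dusp1, chr17:26508423-26508722, minus strand: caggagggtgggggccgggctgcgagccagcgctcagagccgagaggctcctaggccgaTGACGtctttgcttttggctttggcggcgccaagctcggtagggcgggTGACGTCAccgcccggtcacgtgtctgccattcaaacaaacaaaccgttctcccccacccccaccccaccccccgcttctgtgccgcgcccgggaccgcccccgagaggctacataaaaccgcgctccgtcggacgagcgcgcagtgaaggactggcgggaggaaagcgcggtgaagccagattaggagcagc
Btg2, chr1:134079106-134079405, minus strand: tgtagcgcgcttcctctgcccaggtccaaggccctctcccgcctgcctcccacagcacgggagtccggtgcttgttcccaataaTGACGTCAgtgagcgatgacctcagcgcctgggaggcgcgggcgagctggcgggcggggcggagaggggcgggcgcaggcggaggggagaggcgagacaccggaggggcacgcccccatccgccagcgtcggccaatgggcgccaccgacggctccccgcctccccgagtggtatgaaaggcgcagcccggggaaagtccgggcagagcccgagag
A whole CRE began 143 bases before the start of Dusp1 and 166 before that of Btg2. The windows of Npas4 and Fos held the core with no whole CRE, and the Egr2 window shown held a core on either side of its CArG box. Of the 5 annotated windows of Egr2, 3 held the core and 4 the CArG box. Among 10603 tested genes with a window, 3.38% held a CRE, 34.1% the core and 1.58% a CArG box. Of 18 activity-induced transcription factors with a window, 14 held the core, and of 20 activity-induced effector genes 13 did. A CArG box was held by 1 of the 18 and 1 of the 20. Shares with the core varied between other lists, with 12 of 20 cytosolic heat shock protein genes and 2 of 17 astrocyte markers. These are letter matches, and base composition differs between windows.

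Across the panel, probe sets of 2 genes passed the test, that of Npas4 and 1 of 4 for Hspa8, and both were higher after ethanol. Npas4 encodes a transcription factor that neurons induce upon calcium entry. Its level ranged from 6.60 to 8.00 (median 7.60) on the 27 ethanol arrays and from 6.08 to 7.17 (median 6.64) on the 27 saline arrays, as log2 expression. The groups overlapped, with 22 ethanol arrays above the highest saline array. Npas4 averaged 7.49 ± 0.36 after ethanol and 6.65 ± 0.29 after saline (SD, n = 27 each), and the paired difference was 0.84 (SE 0.08). In limma's paired fit over 13196 genes, each read from its brightest probe set, Npas4 was the 1 gene with an adjusted p below 0.05 (adjusted p = 1.70e-07), 0.00758% of all genes.

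Hspa8 encodes the constitutive cytosolic Hsp70 chaperone, which folds new proteins and strips clathrin from endocytic vesicles. When each of 27022 probe sets above the filter was tested on its own, 2 passed, 0.00740% of all, and the smallest p belonged to probe set 1431182_at of Hspa8. Its level ranged from 5.83 to 7.44 (median 6.33) on ethanol arrays and from 5.02 to 6.35 (median 5.62) on saline arrays. The ranges overlapped, yet within every strain the ethanol array was the higher one. Its mean within-strain difference was 0.70 (SE 0.06), which corresponds to 1.63-fold (95% interval 1.49 to 1.78), at an adjusted p of 5.02e-08. It was the 1 probe set higher in 27 of 27 strains, 0.00370% of those tested, and 0 were lower in all 27. Npas4 was second (adjusted p = 4.78e-07). Over all these probe sets 1.55% had an unadjusted p below 0.05 in the higher direction and 2.62% in the lower.

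The size of the Hspa8 difference varied widely between strains. In BXD15 the array values were 7.44 after ethanol and 6.04 after saline, a difference of 1.40. In BXD27 they were 6.34 after ethanol and 6.27 after saline, a difference of 0.07, the smallest of the panel. The other strains lay between 0.21 in BXD09 and 1.28 in BXD05.

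The remaining 3 probe sets of Hspa8 were far brighter and did not pass. Probe set 1420623_x_at, the brightest, averaged 13.27 ± 0.07 after ethanol and 13.29 ± 0.08 after saline (SD, n = 27 each), a difference of -0.02 (SE 0.02). Probe sets 1455789_x_at and 1420622_a_at differed by 0.03 (SE 0.03) and 0.00 (SE 0.04), so 1 of the 4 probe sets passed. What 1431182_at reads, an alternative end of Hspa8, an intron or the opposite strand, was not tested. With the mean of all Hspa8 probe sets the difference was 0.18 (SE 0.03, adjusted p = 0.00352). The Hspa8 result was picked after its values were seen. Arrays of the progenitors, which were not in the paired fit of the panel but counted in the means used for the filter, gave the same sign for 1431182_at. C57BL6/J ethanol arrays read 6.48, 6.29 and 6.30, against 6.04, 5.47 and 5.77 on saline arrays. DBA/2J ethanol arrays read 5.83, 5.92 and 5.29, against 5.26, 5.50 and 5.57 on saline arrays. The C57BL6/J values did not overlap between treatments, and those of DBA/2J did.

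**Figure D1:**
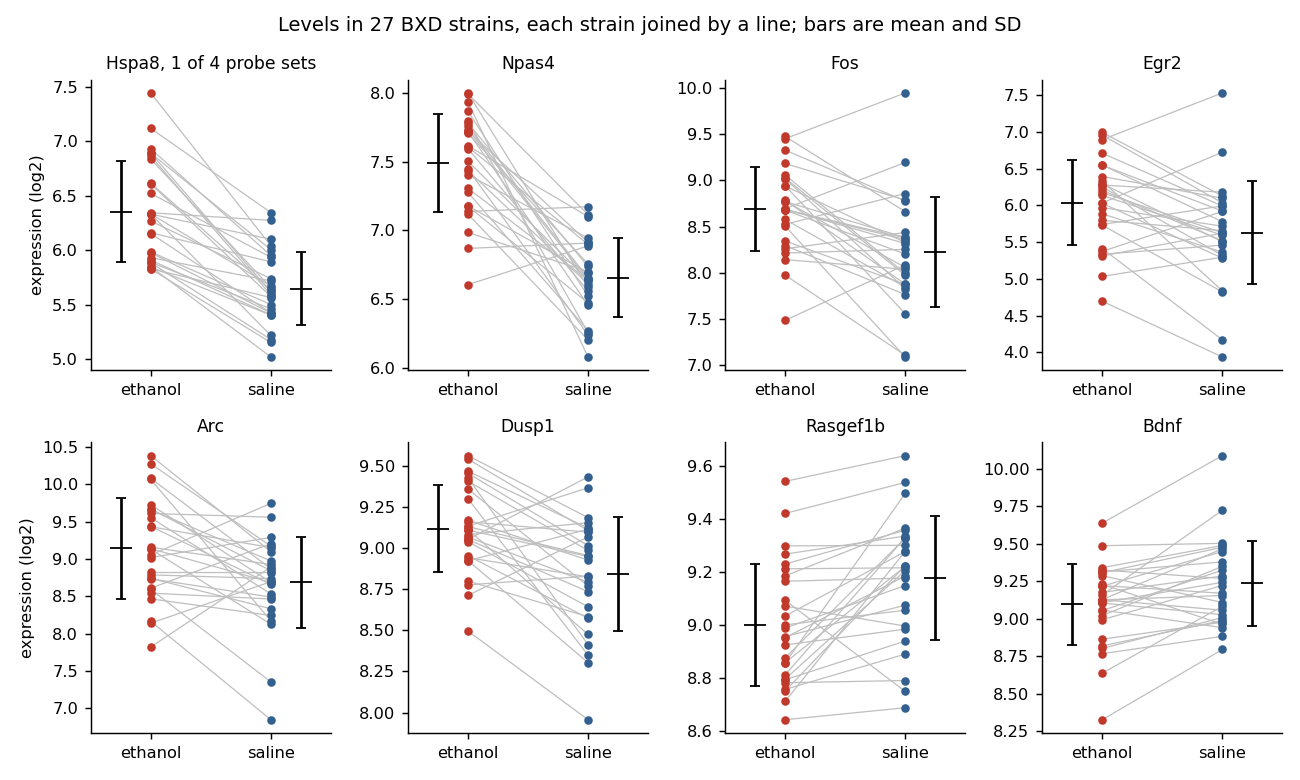
Log2 expression (vertical axes) on ethanol arrays (red, left) and saline arrays (blue, right) for Hspa8 probe set 1431182_at and 7 genes, with a line for each of 27 strains and bars for mean and SD. Every Hspa8 line and 24 of 27 Npas4 lines are higher at the ethanol end, whereas Fos, Egr2, Arc and Dusp1 lines run in both directions and 25 of 27 Rasgef1b lines are lower there.

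**Figure D2:**
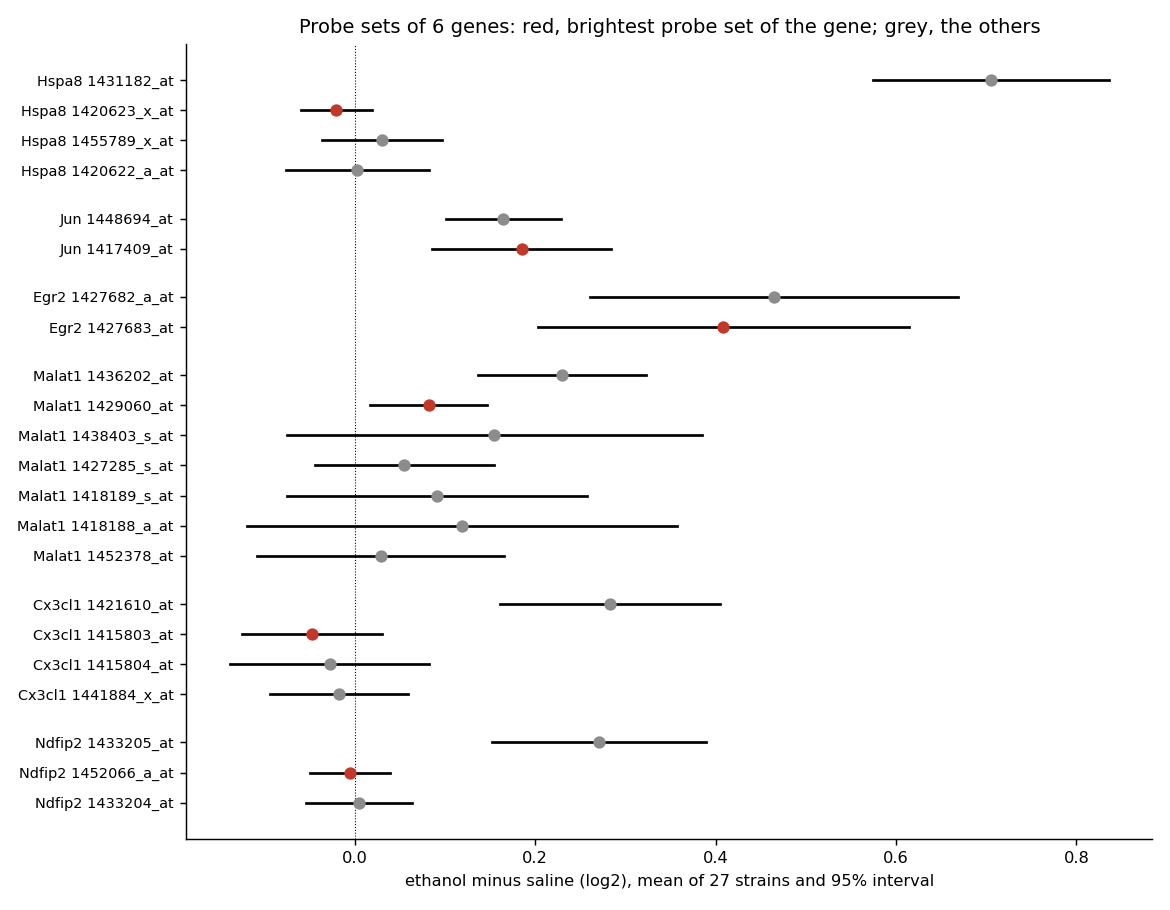
Mean ethanol minus saline difference (horizontal axis, log2) with its 95% interval over 27 strains for each probe set of 6 genes, the brightest probe set of a gene in red. Hspa8 1431182_at stands at 0.70 while its 3 brighter companions lie near 0, and both probe sets of Jun and of Egr2 lie above 0.

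Such disagreement between probe sets recurred in Cx3cl1 and Ndfip2. Neither passed, and nor did Malat1, Jun or Egr2. Cx3cl1, the neuronal chemokine fractalkine, differed by 0.28 (SE 0.06, adjusted p = 0.115) on dim probe set 1421610_at with 23 of 27 strains higher, and by -0.05 (SE 0.04) on its brightest. Ndfip2, an adaptor of Nedd4 ubiquitin ligases, differed by 0.27 (SE 0.06) on 1433205_at and by -0.01 (SE 0.02) on its brightest. Malat1, a nuclear long noncoding RNA, varied in size but not in sign. It differed by 0.23 (SE 0.05) on 1436202_at with 23 strains higher and by 0.08 (SE 0.03) on its brightest. All 7 of its tested probe sets had positive mean differences. Jun and Egr2 had like means on both of their probe sets: 0.18 and 0.16 for Jun, 0.41 and 0.46 for Egr2.

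At an unadjusted p below 0.05 stood 4.93% of the 13196 genes, 1.35% with a positive and 3.58% with a negative difference. The 12 smallest p values in the higher direction included 7 genes of the activity programme. Fos, the AP-1 subunit, ranged from 7.49 to 9.48 (median 8.69) after ethanol and from 7.09 to 9.95 (median 8.21) after saline. No ethanol array exceeded the highest saline array. Its difference was 0.46 (SE 0.10), with 21 of 27 strains higher, and it did not pass (adjusted p = 0.115). Egr2, a zinc finger factor of the same programme, ranged from 4.70 to 6.99 (median 6.13) after ethanol and from 3.94 to 7.53 (median 5.63) after saline. It differed by 0.41 (SE 0.10, adjusted p = 0.211) with 20 strains higher.

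Arc, which encodes a protein of the postsynapse that removes AMPA receptors, spanned 7.82 to 10.39 (median 9.13) after ethanol and 6.85 to 9.75 (median 8.74) after saline. Its difference was 0.45 (SE 0.12, adjusted p = 0.413), with 22 strains higher and strain values between -1.07 in BXD27 and 1.89 in BXD16. Dusp1, the MAP kinase phosphatase, spanned 8.50 to 9.56 (median 9.11) after ethanol and 7.96 to 9.43 (median 8.93) after saline. It differed by 0.28 (SE 0.06, adjusted p = 0.136). Jun differed by 0.18 (SE 0.05) and Btg2, an antiproliferative regulator of mRNA decay, by 0.24 (SE 0.07), with 20 strains higher for each. Neither passed, at adjusted p values of 0.366 and 0.618.

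The other 5 genes of the 12 had smaller differences. A930017M01Rik, a transcript without an assigned function, averaged 6.66 ± 0.21 after ethanol and 6.49 ± 0.20 after saline (SD, n = 27 each), with 23 strains higher (adjusted p = 0.115). Dlg5, a membrane-associated scaffold, differed by 0.17, Rapgef6, an exchange factor for Rap GTPases, by 0.14, Cyp11a1, the enzyme that starts steroid synthesis, by 0.14, and the galactosyltransferase B3galt5 by 0.14. The other probe sets of Dlg5, Cyp11a1 and B3galt5 differed by -0.00 to 0.04, so these 3 rest on 1 probe set each.

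Genes lower after ethanol had small differences that were shared by many strains, and none passed. Rasgef1b, an exchange factor for small GTPases, ranged from 8.64 to 9.54 (median 8.96) after ethanol and from 8.69 to 9.64 (median 9.22) after saline. It was lower in 25 of 27 strains, the exceptions being BXD21 and BXD32, and differed by -0.18 (SE 0.04, adjusted p = 0.164). Gga2, a clathrin adaptor of the trans-Golgi network, was likewise lower in 25 of 27 strains, with a difference of -0.10 (SE 0.02, adjusted p = 0.207). Being lower in at least 20 strains applied to 1.39% of all genes, and higher in at least 20 to 0.417%.

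Kcns2, a silent subunit of voltage-gated potassium channels, averaged 8.24 ± 0.14 after ethanol and 8.36 ± 0.13 after saline (SD, n = 27 each). Tmem74b, a transmembrane protein, averaged 6.35 ± 0.18 after ethanol and 6.52 ± 0.13 after saline (SD, n = 27 each). Pparg, the nuclear receptor of adipocytes and macrophages, averaged 5.69 ± 0.11 after ethanol and 5.83 ± 0.14 after saline (SD, n = 27 each), close to the filter at 5.10. The 3 adjusted p values were 0.116, 0.116 and 0.121. Slc16a1, the monocarboxylate carrier MCT1, differed by -0.16, the kinase Hunk by -0.17, the endocytic adaptor Dab2 by -0.12, the splicing factor Srsf6 by -0.09 and the sterol-binding protein gene Osbpl10 by -0.10. Scpep1, a serine carboxypeptidase, differed by -0.10 and Erlin1, of the endoplasmic reticulum membrane, by -0.08. Several of these genes had smaller differences on other probe sets: those of Srsf6 lay between -0.03 and 0.02, that of Erlin1 was at 0.02, of Scpep1 at -0.02, and of Kcns2 and Osbpl10 at -0.04 each.

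**Figure D3:**
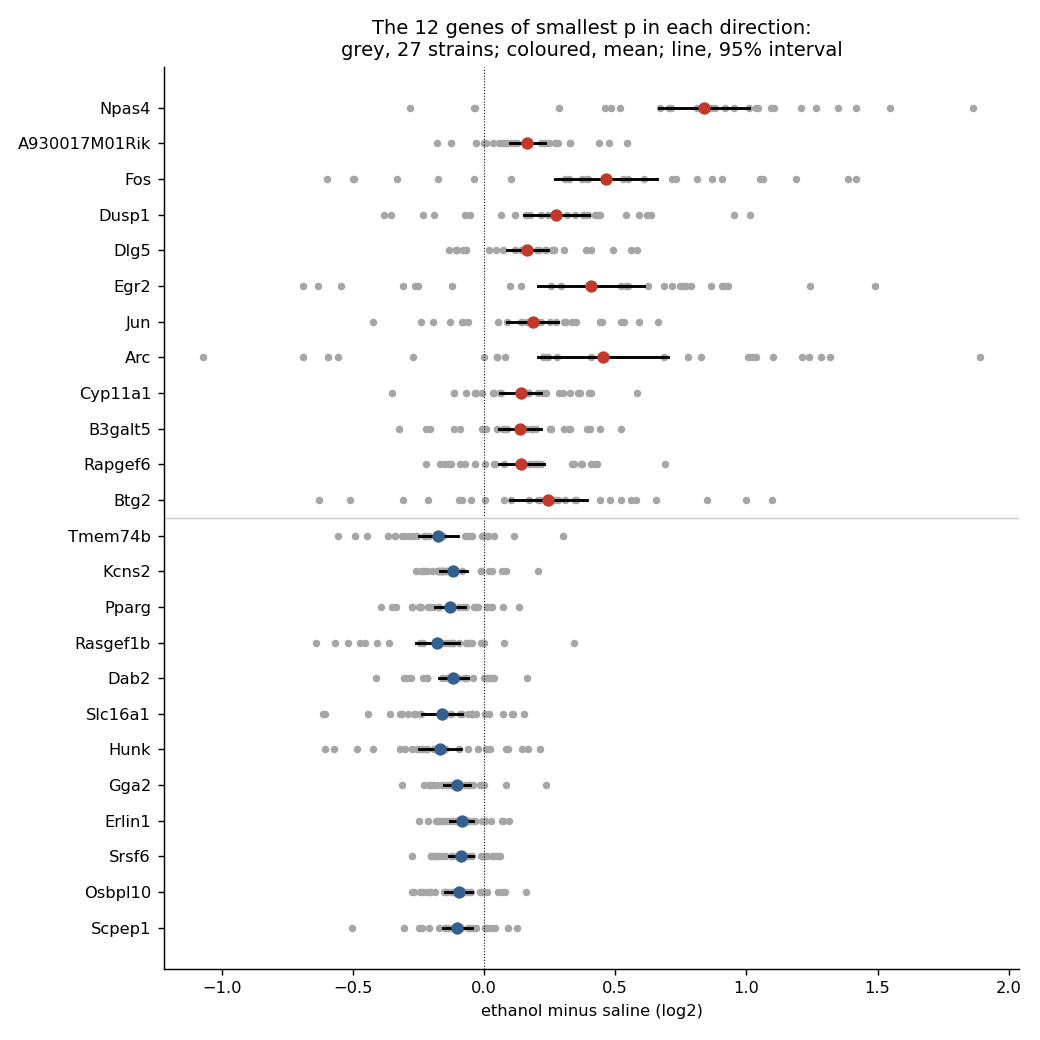
Ethanol minus saline difference (horizontal axis, log2) of the 12 genes with the smallest p in each direction; grey points are 27 strains, coloured points the mean and black lines its 95% interval. Npas4 stands apart at 0.84, Fos, Egr2 and Arc have wide strain spreads around 0.41 to 0.46, and the lower genes sit between -0.18 and -0.08.

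In the progenitors, which share no array with the panel, all 12 higher genes had a positive difference in C57BL6/J and 11 in DBA/2J, B3galt5 being the exception at -0.30. For the 12 lower genes 10 had a negative difference in C57BL6/J and 7 in DBA/2J. Over all genes the sign matched in 57.8% for C57BL6/J and in 54.6% for DBA/2J. Fos differed by 0.68 in C57BL6/J and 0.78 in DBA/2J, Egr2 by 0.77 and 0.84 in the same strains, and Kcns2 by -0.11 and 0.06.

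The activity programme was uneven among its members. Of 24 tested transcription factors on that list, 18 had a positive difference, where 37.6% of all genes did. An unadjusted p below 0.05 in the higher direction was reached by 9 of them, where the share over all genes was 1.35%. Besides those above these were Junb, 0.20 (SE 0.08), Ier2, 0.14 (SE 0.04), Nr4a1, 0.14 (SE 0.06), and Egr1, 0.11 (SE 0.05). The median member differed by 0.03, against -0.01 over all genes. Fosb averaged a difference of -0.16 (SE 0.08) and Fosl2 of -0.11 (SE 0.06), AP-1 subunits like Fos, and Egr3 was at -0.01 (SE 0.04). For Fosb 13 strains were higher and 14 lower, with a median difference of -0.01 and a lowest of -1.37. Without Npas4 the median of the 23 others was 0.03 and 17 were positive. Per strain, the mean of the 24 members was highest in BXD16 (0.37), BXD20 (0.33) and BXD23 (0.32) and lowest in BXD27 (-0.25), BXD21 (-0.17) and BXD28 (-0.15), and it was positive in 20 strains. The mean over all genes was positive in 9 strains.

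Effector genes of the activity programme went both ways. Of 28 tested, 6 had an unadjusted p below 0.05 in the higher direction and 8 in the lower, where the shares over all genes were 1.35% and 3.58%, and the median was -0.01. The higher ones were Arc, Dusp1, Trib1 (0.13), Dusp6 (0.12), Ptgs2 (0.11) and Sik1 (0.07). The lower ones were Nptx2, Bdnf, Inhba (-0.11), Gadd45b (-0.10), Rgs2 (-0.09), Pim1 (-0.09), Dusp14 (-0.08) and Nrn1 (-0.07). Bdnf, the neurotrophin, ranged from 8.33 to 9.64 (median 9.13) after ethanol and from 8.79 to 10.09 (median 9.22) after saline, with a difference of -0.14 (SE 0.04, adjusted p = 0.436) and 7 strains higher. Its dimmer probe set differed by -0.11, also with 7 strains higher. Nptx2, a pentraxin that clusters AMPA receptors, ranged from 7.32 to 9.48 (median 8.10) after ethanol and from 7.25 to 9.54 (median 8.35) after saline. Its difference of -0.25 (SE 0.09, adjusted p = 0.875) was the lowest of all genes tested, yet 10 strains were higher and strain values ran from -1.14 in BXD09 to 0.56 in BXD22.

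Several genes of this programme were among those whose differences varied most between strains. Ranked by the SD of the 27 differences among 13196 genes, Arc was at 5 (SD 0.72), Egr2 at 12 (SD 0.58), Fos at 14 (SD 0.56), Nptx2 at 22 (SD 0.52) and Npas4 at 38 (SD 0.49). Npas4 differences ran from -0.28 in BXD27, -0.04 in BXD39 and -0.03 in BXD21 to 1.42 in BXD12, 1.55 in BXD36 and 1.86 in BXD32. Fos differences ran from -0.60 in BXD27, -0.50 in BXD21 and -0.49 in BXD01 to 1.39 in BXD32 and 1.42 in BXD18. With 1 pool per strain and treatment, strain differences in response and the spread between pools cannot be told apart.

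Strains with a large Npas4 difference tended to have a large Fos difference. Both differences of a strain come from the same pair of arrays. Over 27 strains Pearson's r was 0.71 and Spearman's rho 0.72, with permutation p values of 4.0e-05 and 5.0e-05, or 4.8e-04 and 6.0e-04 adjusted over 12 partner genes. For Dusp1 r was 0.62 (permutation p = 5.5e-04, adjusted p = 0.00330) and rho 0.53 (adjusted permutation p = 0.0139). For Egr2 r was 0.60 (permutation p = 9.7e-04, adjusted p = 0.00388) and rho 0.67 (adjusted permutation p = 0.00132). Arc (r = 0.51), Egr1 (0.50), Junb (0.49) and Nr4a1 (0.49) shared an adjusted permutation p of 0.0166, of which Junb also passed by rho (adjusted p = 0.0119). The adjusted permutation p of rho was 0.0884 for Arc, 0.0514 for Egr1 and 0.0538 for Nr4a1.

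Without BXD27 and BXD32, the strains farthest from the median Npas4 difference, Fos (r = 0.60, adjusted permutation p = 0.0200) and Egr2 (r = 0.56, adjusted p = 0.0221) passed, while Dusp1 (r = 0.43) and Junb (r = 0.40) were at 0.0894 and Arc (r = 0.36), Nr4a1 (r = 0.36) and Egr1 (r = 0.27) at 0.115, 0.115 and 0.262. The calls on r for Dusp1, Arc, Egr1, Junb and Nr4a1 therefore rest on those 2 strains, although each r stayed positive. Over all 27 strains the rho of Dusp1 and Junb had passed. Over all genes the median r with Npas4 was 0.03, and 95% of genes lay between -0.33 and 0.38. A share of 0.00758% of genes was at or above the r of Fos, 0.0455% at or above that of Dusp1 and 0.0531% at or above that of Egr2.

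The remaining 5 partners did not pass. Fosb had r = -0.02, Hspb1 0.04, Bdnf 0.29, Egr4 0.34 and Fkbp5 -0.34, with adjusted permutation p values from 0.113 to 0.922. Btg2, added after its values were seen, had r = 0.59 (permutation p = 0.00116, rho = 0.57). Jun, added likewise, had r = -0.02 although its mean was higher, and its difference had r = 0.47 with the difference in array SD, a measure of the spread of values on an array. For Npas4 that r was 0.18, for Fos -0.14 and for Egr2 -0.09. The Hspa8 difference on 1431182_at had r = 0.52 with Npas4 and 0.26 with Fos (0.40 with Npas4 without the 2 farthest strains), and r = 0.48 with the difference in array SD. With array SD as a covariate the Hspa8 difference was 0.71 (adjusted p = 5.11e-09). The fit of genes with that covariate called 4 genes, and Jun was not among them. Over 39 settings, that one included, the Jun difference lay between 0.17 and 0.21.

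**Figure D4:**
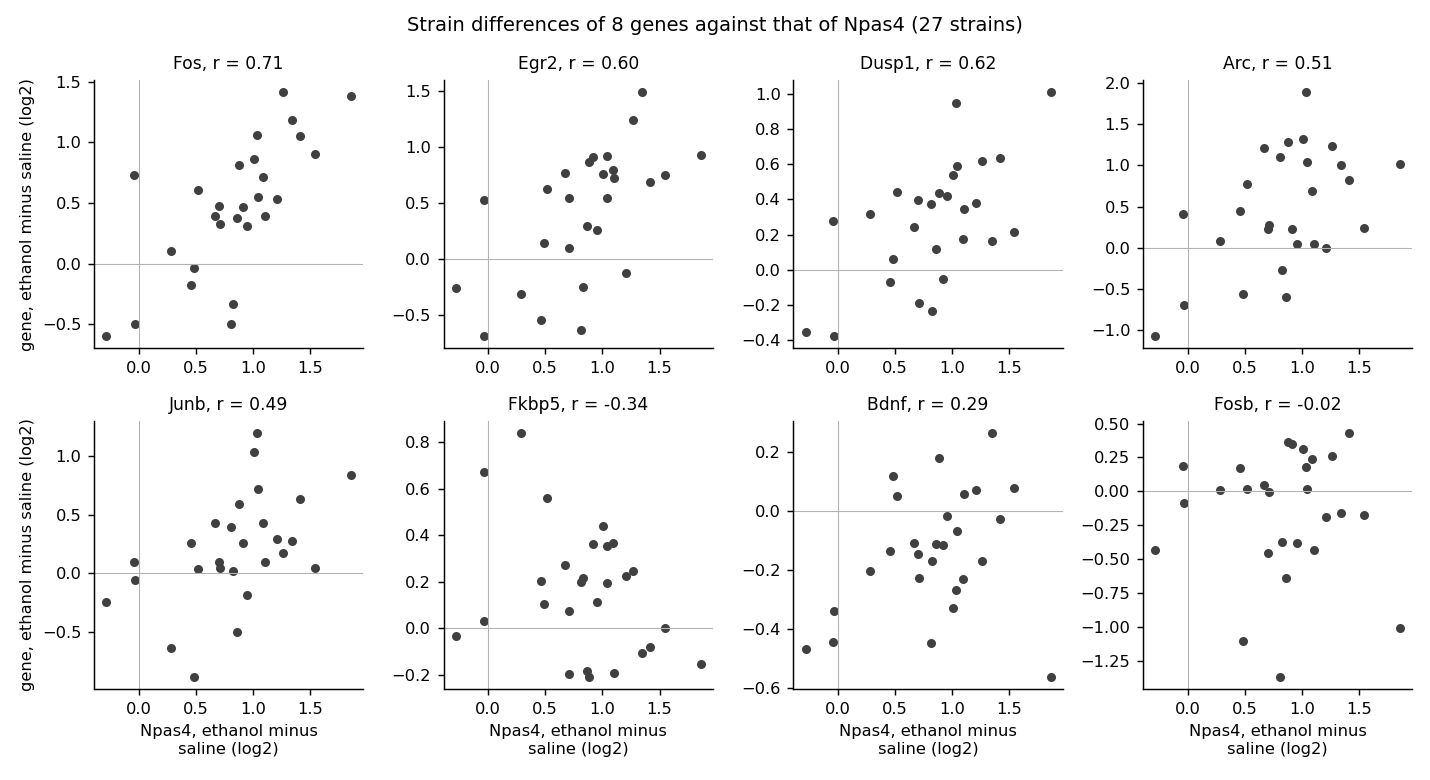
Each point is 1 of 27 strains, with the ethanol minus saline difference (log2) of Npas4 on the horizontal axis and that of 8 other genes on the vertical axes. Points of Fos, Dusp1 and Egr2 go up to the right (r = 0.71, 0.62 and 0.60), while for Fosb and Fkbp5 r is -0.02 and -0.34.

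Glucocorticoid-responsive genes had a positive difference in 19 of 25 tested members, none of which passed in limma, where 37.6% of all genes were positive. Without BXD09 the count was 15. Their median was 0.02 and 3 had an unadjusted p below 0.05, all higher, where the share over all genes in that direction was 1.35%. Fkbp5, a co-chaperone that restrains the glucocorticoid receptor, ranged from 8.12 to 8.96 (median 8.42) after ethanol and from 7.73 to 8.63 (median 8.27) after saline. Its difference was 0.16 (SE 0.05, adjusted p = 0.659), with 19 strains higher. The metallothionein Mt2 differed by 0.10 (SE 0.04), while Sgk1 and Per1, textbook targets of the receptor, were at 0.00 (SE 0.04) and -0.01 (SE 0.06). The third gene, Dusp1, is also an effector of the activity programme. The list mean was largest in BXD09 (0.29) and BXD39 (0.26), strains whose Npas4 differences were 0.28 and -0.04.

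Genes of cytosolic heat shock proteins, with Hspa8 read from its brightest probe set, had mostly negative differences, and limma called none of them. Before adjustment 2 of the 24 were lower at p below 0.05, where the share over all genes in that direction was 3.58%. Of 24 tested members 18 had a negative difference, against 62.4% of all genes, with a median of -0.03. The list mean was negative in 21 of 27 strains, and the mean over all genes in 18. Hspb1, the small heat shock protein Hsp27, averaged 8.73 ± 0.27 after ethanol and 8.93 ± 0.27 after saline (SD, n = 27 each), a difference of -0.20 (SE 0.05, adjusted p = 0.413) with 7 strains higher. Stip1, which links Hsp70 to Hsp90, differed by -0.06 (SE 0.02).

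Differences of immune and vascular markers were mostly negative as well, and none of these genes passed in limma. Of 16 tested microglia markers 15 had a negative difference, where 62.4% of all genes did. An unadjusted p below 0.05 was reached by 6, all lower, where the share over all genes in that direction was 3.58%. They were Aif1 (-0.11), Ly86 (-0.10), the complement subunit C1qc (-0.10), the Fc receptor chain Fcer1g (-0.09), the adaptor Tyrobp (-0.09) and the lysosomal protein Laptm5 (-0.07). Over strains the microglia list mean was positive in 12 and negative in 15, from -0.30 to 0.15. The mean over all genes was positive in 9 and negative in 18. Across arrays the summed level of the list, as a mean of log2 values, ran from 7.86 to 8.27 after ethanol and from 7.96 to 8.42 after saline. Whether the list shifted as a set was not tested, and in bulk tissue cell number and RNA per cell cannot be told apart.

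Of 15 innate immune and interferon genes 12 were negative, where 62.4% of all genes were. An unadjusted p below 0.05 was reached by 3, all lower, where the share over all genes in that direction was 3.58%. The 3 were Ifitm3 (-0.13), Irf9 (-0.09) and the immunoproteasome subunit Psmb9 (-0.09). The list mean of the 15 genes was -0.49 in BXD08 and between -0.18 and 0.10 in the other 26 strains. Without BXD08 the mean over strains was -0.03, against -0.05 with it, and 12 members were again negative. Endothelial and pericyte markers were negative in 19 of 22, and 3 had an unadjusted p below 0.05, all lower, beside the same share of 3.58%. They were the pericyte potassium channel Kcnj8 at -0.10 (SE 0.03, 5 strains higher), Acta2 of smooth muscle at -0.12 and the receptor Kdr at -0.10. The mean of the 22 was positive in 11 strains and negative in 16, where the mean over all genes was positive in 9 and negative in 18. Meningeal and fibroblast markers were negative in 14 of 15 with 0 at an unadjusted p below 0.05, and their list mean was -0.77 in BXD18. It was positive in 13 strains and negative in 14, and without BXD18 the mean over strains was -0.02, against -0.04 with it, and 10 members were negative. Mean levels of these markers ran from 6.94 to 7.71 after ethanol and from 7.14 to 7.83 after saline, and the part of these cells in the other differences was not tested.

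Large housekeeping lists also had small negative medians, and none of their genes passed in limma. Negative differences were found for 60 of 71 nuclear oxidative phosphorylation subunits (median -0.03), 36 of 45 cytosolic ribosomal proteins (median -0.02) and 30 of 37 proteasome subunits (median -0.02), where 62.4% of all genes were negative with a median of -0.01. Without BXD18 these counts were 56, 32 and 26. An unadjusted p below 0.05 was reached by 0 of the 71, 0 of the 45 and 2 of the 37, where the share over all genes was 4.93%, or 3.58% in the lower direction. The 2 were the immunoproteasome subunits Psmb10 (-0.08) and Psmb9, both lower. Endoplasmic reticulum chaperones and stress genes were negative in 19 of 26, and 1 of the 26 had an unadjusted p below 0.05. It was Chac1, a glutathione-degrading enzyme of the stress response, at -0.06 (SE 0.03).

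Lists of receptor, transmitter and clock genes had medians between -0.02 and 0.02, against -0.01 over all genes. At an unadjusted p below 0.05 stood 1.35% of all genes in the higher direction and 3.58% in the lower. Among 9 GABA-A receptor subunits 6 were positive, where 37.6% of all genes were, and 1 reached that level. It was Gabra5, at 0.07 (SE 0.03), while Gabra2 differed by 0.05 (SE 0.05), with 14 strains higher for Gabra2. Of 15 ionotropic and 6 metabotropic glutamate receptor genes 1 each had an unadjusted p below 0.05, Grin2c at -0.10 and Grm2 at -0.07. The same held for 1 of 22 synaptic vesicle genes, the priming factor Unc13a at -0.08 (SE 0.03). Of 21 clock genes 1 did so too, the repressor Nr1d1 at -0.11 (SE 0.05). Gsk3b differed by 0.02 (SE 0.04), and of 22 genes of its pathway list 2 were below 0.05, Akt2 and Axin1 at -0.07 each. Genes of ethanol and aldehyde metabolism (13 tested) and ethanol-sensitive potassium channels (9 tested) had 0 members at an unadjusted p below 0.05 in limma. None of these genes passed.

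**Figure D5:**
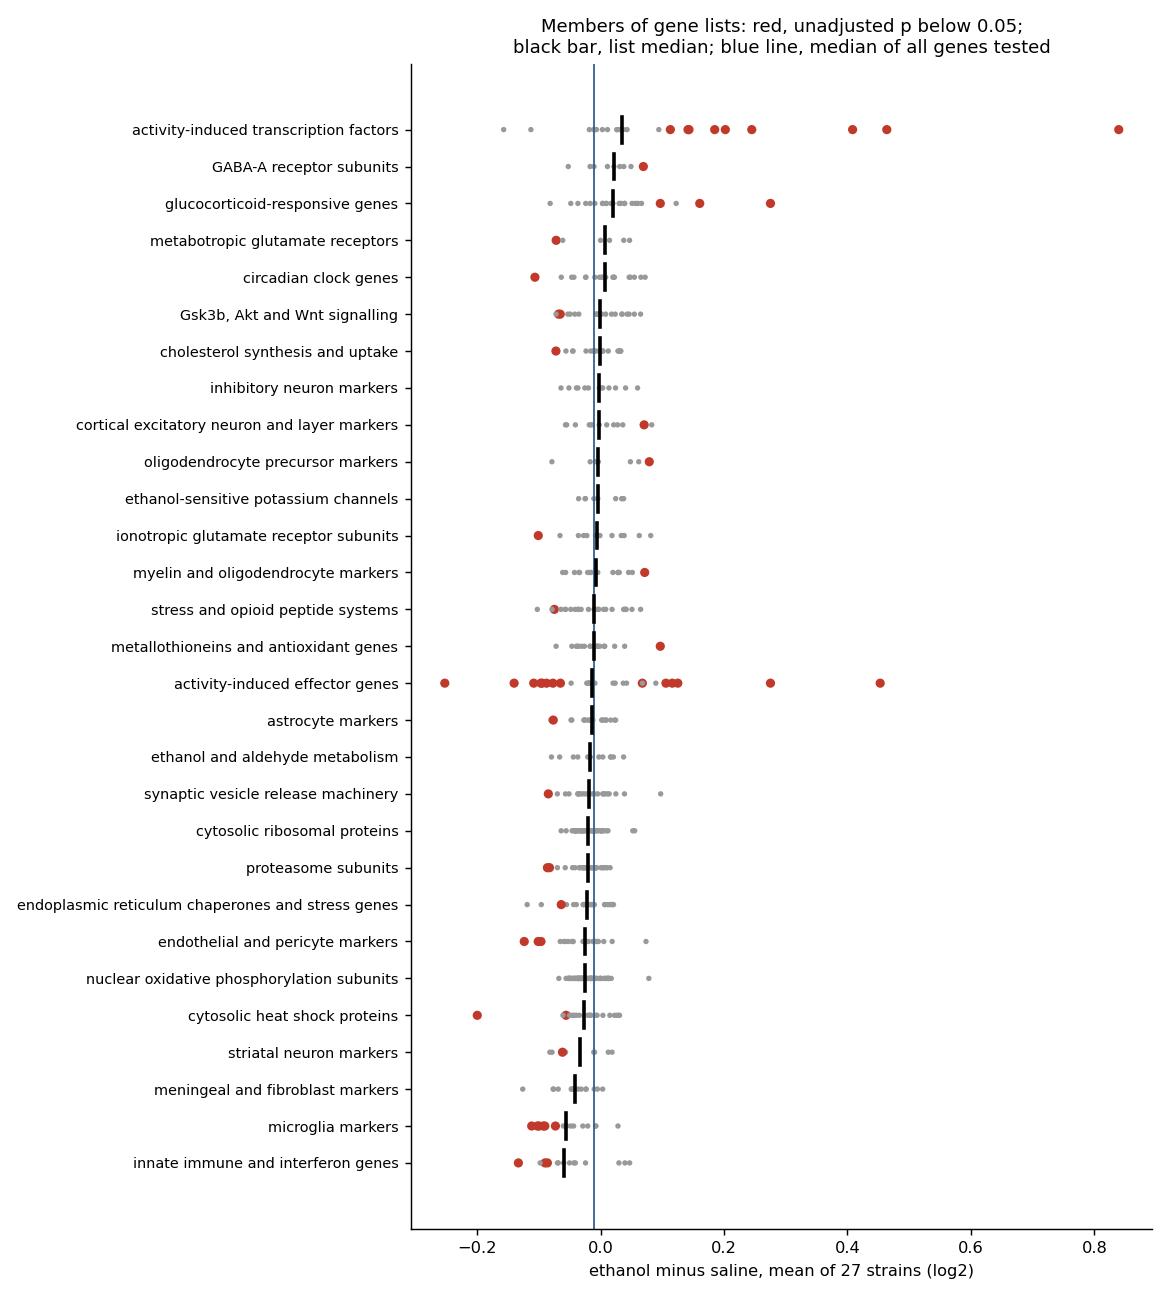
Mean ethanol minus saline difference (horizontal axis, log2) of each tested member of lists with at least 5 tested genes, members at an unadjusted p below 0.05 in red, list medians as black bars and the median of all genes, -0.01, as a blue line. Activity-induced transcription factors reach from -0.16 to 0.84 and activity-induced effectors from -0.25 to 0.45, whereas ribosomal and oxidative phosphorylation genes stay within about 0.08 of 0.

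Markers of cortical neurons were present in both groups. Mean levels of 13 excitatory neuron and layer markers ran from 8.86 to 9.21 after ethanol and from 8.83 to 9.13 after saline. Those of 8 striatal markers ran from 7.28 to 7.57 after ethanol and from 7.35 to 7.77 after saline. Of the 8, 6 were negative, where 62.4% of all genes were, with a median of -0.03. Their list mean was negative in 18 of 27 strains, and the mean over all genes was negative in 18 too. Myelin (17 tested), astrocyte (19 tested) and inhibitory neuron (13 tested) markers had medians between -0.01 and -0.00. Mbp differed by -0.02 (SE 0.04).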

How the data were processed

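The submitters' processing notes name affy and RMA, without version numbers, for the deposited log2 values. Since RMA equalises the distribution across arrays, values are relative. BXD array medians lay between 5.67 and 5.76, array SDs between 2.06 and 2.17, and the highest correlation between 2 arrays was 0.997. The number of arrays limits the precision. The labels state random assignment to processing batches, and the batch of an array was not used here.

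Of 45037 probe sets, 34945 came with a single gene symbol, 932 with several and 9160 with none in the platform annotation, and 34741 symbols were updated by Entrez identifier through RefSeq (GRCm38.p6). Probe sets with a mean below the 40th percentile (5.10) were removed. Each of 13196 genes was read from its brightest probe set. Limma 3.58.1 in R 4.3.3 (package data.table, version 1.17.8) fitted treatment with strain as a block on 54 arrays (26 residual degrees of freedom, lmFit and eBayes, two-sided, Benjamini-Hochberg). All p and adjusted p values of single genes are limma's. P-values measure strain differences together with the spread between pools.

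Strain number pairs arrays by the labels. On arrays centred on their treatment mean, 23 of 27 ethanol arrays correlated best with the saline array of their strain, and 22 of 27 saline arrays with the ethanol array. Own-strain correlations had a median of 0.44 and between-strain ones of -0.02.

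Correlations used 100000 permutations. Members, the 31 gene lists (596 distinct genes tested) and named genes were chosen with earlier results of these data known. Genes named are those past the threshold, the 12 smallest p in each direction, up to 3 smallest p per list and 16 fixed genes. Others, such as Hspa8, Cx3cl1, Malat1, Ndfip2, Btg2 partners and further list members with an unadjusted p below 0.05, were named after their values were seen. Alternatives changed the filter, probe set rule, scaling, model, covariates and strains. Promoter windows come from RefSeq, read with Python 3.11.15, and figures from matplotlib 3.10.9.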

Additional observations from a re-analysis of the deposited data

How the results depend on the processing

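Npas4 passed under every alternative run, with differences from 0.80 to 0.88 and adjusted p values up to 0.00275 (Wilcoxon signed-rank test). The number of genes called was 1 in the paired fit, with no filter or a stricter one (60th percentile), with median centring, with a robust trended prior, in the Wilcoxon test and without the replicate block (Npas4 difference 0.84, adjusted p = 8.99e-10). It was 2 with all probe sets or the mean of the probe sets of a gene (Hspa8 added), with repeated quantile normalization (A930017M01Rik), array weights (Kcns2) and all 66 arrays in 1 fit (Fos). It was 4 with array SD as a covariate (A930017M01Rik, Pparg and Tmem74b added) and 14 with residual component 1 as a covariate, 5 higher and 9 lower, a component taken from the residuals of the same fit. Leaving out each strain gave 1 to 4 genes: 4 without BXD21 (A930017M01Rik, Dusp1 and Fos added), 3 without BXD32 (Rasgef1b and Tmem74b) and 2 without BXD01, BXD02, BXD23 or BXD27. Hspa8 probe set 1431182_at ranged from 0.68 to 0.73 over 34 settings, with adjusted p values from 5.11e-09 to 1.84e-04, the highest without the replicate block. The number of partner genes passing with Npas4 was 7, and 2 without the 2 farthest strains. Of 4431 values of 114 genes, 4389 kept direction and side of the threshold, 23 came to pass and 19 changed sign: Mbp at 0.0179 and Ahsa1 at 0.0171 with the mean of probe sets, Sgk1 at -0.0131 and Per1 at 0.0362 with array weights, and, leaving out strains, Sgk1 from -0.0179 to 0.0162 and Per1 from -0.0293 to 0.0200. Medians of 4 lists with at least 5 tested genes changed sign with scaling, all within 0.01 of 0: cholesterol synthesis, Gsk3b, Akt and Wnt signalling, inhibitory neuron and cortical excitatory markers. No detection calls were used here, so a difference at a dim level has no exact size, and strains had 1 array per treatment.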
